A study of Mus musculus with 12 samples.

Results

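The genes described here are 9 members of mitochondrial fatty acid oxidation, ketone body metabolism and its switch from glucose. They are Cpt1a, Cpt2, Acadm, Acadl, Acadvl, Hadha, Hadhb, Bdh1 and Pdk4. They were chosen by gene name from 2 tables of transcript abundance, one for liver and one for duodenum, and each table lists 55416 genes. All 9 were present in both tables and all 9 passed the filter on low values in both, among 11699 genes tested in liver and 13607 tested in duodenum. The samples came from male C57BL6/J mice that were 8 weeks old when treatment began. One group received corticosterone (CORT), the main glucocorticoid of rodents, at 40 mg/kg, and the other received the vehicle alone (Veh), a mixture of DMSO, Tween-80 and water, both by daily subcutaneous injection for 8 weeks. RNA was sequenced from 50 mg of tissue per sample, in 3 libraries of each group and tissue, which makes 12. The labels call the gut samples intestine and the study's methods name the duodenum, the first segment of the small intestine. The labels call the replicates biological but do not name the animals, and the p-values measure the spread between these samples only.

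Long-chain fatty acids enter mitochondria bound to carnitine, and are then shortened in the matrix by repeated rounds of beta-oxidation that release acetyl-CoA. The liver turns part of this acetyl-CoA into the ketone bodies acetoacetate and beta-hydroxybutyrate, which other organs burn during fasting, and enterocytes of the small intestine also oxidise fatty acids. Pyruvate dehydrogenase kinases switch off the entry of pyruvate into the same acetyl-CoA pool, and glucocorticoids and fasting are known to induce one of them, Pdk4, in several tissues.

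The deposited values are TPM, a relative transcript abundance corrected for transcript length and scaled to the library total. Levels of different genes within a library can therefore be compared, but TPM does not show how many reads a value rests on, and counting error could not be computed. TPM summed to between 993160 and 997319 per duodenum library, between 996218 and 996427 in the Veh livers and between 983327 and 988077 in the CORT-treated livers. Fold changes are differences of log2(TPM + 1), CORT minus Veh, tested with limma in each tissue alone. A gene was counted as passed when its adjusted p was at most 0.05 and its fold change exceeded 1.5. Fkbp5, a gene that glucocorticoids induce, checked the treatment and rose in both tissues (log2 fold change 4.23 in liver, limma adjusted p = 0.00178; 4.30 in duodenum, limma adjusted p = 0.00450). Hepatocyte markers held between 78523 and 121097 TPM of the liver libraries, and enterocyte markers between 19604 and 36202 TPM of the duodenum libraries. In duodenum, 14 markers of pancreatic acinar cells summed to 31756 TPM in Veh2 and 27176 TPM in Veh3, against 176 TPM in Veh1 and between 143 and 317 TPM in the CORT libraries. Values are given below in the order of replicates 1, 2 and 3. In whole tissue, fewer cells of a type and less RNA per cell cannot be told apart.

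Pdk4 was the member with the largest response, and Cpt2 was the other member that passed a test. In duodenum, Pdk4 rose 8.60-fold by the means, and in liver Cpt2 rose 1.97-fold. In liver, 1 of the 9 genes passed, against 6.92% of all genes tested there. In duodenum 1 of 9 passed, against 2.15% of all genes tested. In liver the log2 fold change was above 0 for 8 of 9 members, against 58.4% of all genes, with a median of 0.58 over the 9 and 0.078 over all genes tested. In duodenum it was above 0 for 8 of 9 as well, against 48.5% of all genes, but the median was 0.16, beside -0.012 over all genes tested. The plot of TPM by library shows that 8 of the 9 genes lay between 50.01 and 271 TPM in every library of both tissues, while Pdk4 lay below all of them in the liver libraries and in the Veh libraries of duodenum. The groups did not overlap for 3 of 9 members in liver (Cpt2, Acadm and Pdk4), all higher in CORT, against 32.2% of all genes there and 20.6% in that direction. In duodenum this held for 2 of 9 (Acadl and Pdk4), both higher, against 26.4% and 12.2%. At an unadjusted p under 0.05 there were 6 of 9 members in liver, against 25.9% of all genes, and 2 of 9 in duodenum, against 19.2%. With the fold limit added, 4 of 9 members would be counted in liver, against 15.5% of all genes, and 2 of 9 in duodenum, against 10.3%. These counts describe a list chosen with earlier results in view and carry no test.

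**Figure D1:**
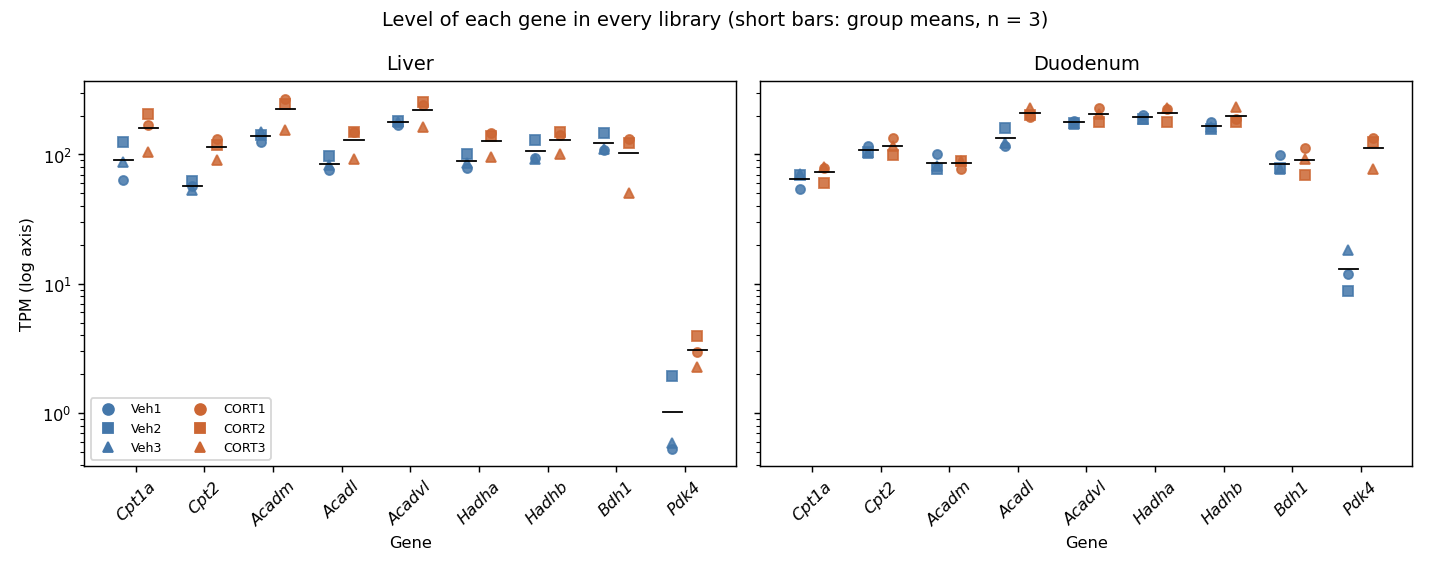
TPM (log axis) of each of the 9 genes in each library of liver and duodenum, with Veh in blue, CORT in orange, 1 marker shape per replicate number and short bars at the group means (n = 3). Pdk4 lies far below the other 8 genes in Veh libraries of both tissues and reaches their range only in CORT-treated duodenum, where it is between 77.4 and 135 TPM.

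The carnitine palmitoyltransferases are the gate to beta-oxidation: Cpt1a, the liver form of the enzyme on the outer membrane, loads fatty acids onto carnitine and is the usual rate-controlling step, and Cpt2 on the inner membrane takes the carnitine off again. Cpt2 (ENSMUSG00000028607) was at 57.1, 62.5 and 53.0 TPM in the Veh livers and 132, 118 and 90.0 TPM in the CORT-treated livers. Every CORT value lay above every Veh value, and Cpt2 rose from 57.5 ± 4.80 TPM (SD, n = 3) to 113 ± 21.4 TPM (SD, n = 3) (log2 fold change 0.95, standard error 0.17, 95% interval 0.55 to 1.35, limma adjusted p = 0.0237). Cpt2 also passed without Veh2 or without CORT3, but not without Veh1 (limma adjusted p = 0.0739), Veh3 (0.0868), CORT1 (0.0863) or CORT2 (0.0692). With no filter on low values the adjusted p was 0.0585. Cpt1a (ENSMUSG00000024900) was at 63.0, 124 and 87.0 TPM in the Veh livers and 169, 204 and 105 TPM in the CORT-treated livers. The groups overlapped, since Veh2 lay above CORT3, and the difference did not pass (log2 fold change 0.80, standard error 0.32, 95% interval 0.046 to 1.55, limma adjusted p = 0.172). The Veh livers spread over nearly the same range as the difference of the means.

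In duodenum, Cpt1a was at 53.8, 70.0 and 70.3 TPM in Veh and 78.1, 59.9 and 79.9 TPM in CORT, and Cpt2 at 116, 104 and 103 TPM in Veh and 134, 98.5 and 116 TPM in CORT. Both pairs of groups overlapped, and neither gene passed (Cpt1a: log2 fold change 0.16, standard error 0.17, 95% interval -0.24 to 0.57, limma adjusted p = 0.632). For Cpt2 the estimate was close to 0 (log2 fold change 0.098, standard error 0.15, 95% interval -0.25 to 0.44, limma adjusted p = 0.743) and its sign turned to -0.0089 without CORT1. The intervals bound what these libraries allow for either gene in duodenum. The ratio of Cpt1a to Cpt2 within a library compares the genes on either side of the membrane: it was 1.10, 1.99 and 1.64 in the Veh livers and 1.28, 1.73 and 1.17 in the CORT-treated livers. In duodenum it was 0.465, 0.671 and 0.685 in Veh and 0.585, 0.608 and 0.691 in CORT, so Cpt1a exceeded Cpt2 in every liver library and lay below it in every duodenum library. CORT and Veh overlapped in both tissues (exact permutation p = 0.8 in each, two-sided, where 3 against 3 libraries cannot give a p below 0.1).

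The sequences before the starts of the genes that passed, and of the pair of genes that share a start region, are shown because members that moved and members that did not can be read side by side. The windows are the 250 bases before each RefSeq start in GRCm38.p6, 5′ to 3′ along the gene, with motif matches in capitals. They were found for all 9 genes in 10 windows, since Bdh1 has a pair of starts.
Cpt2, chr4:107923590-107923839, minus strand: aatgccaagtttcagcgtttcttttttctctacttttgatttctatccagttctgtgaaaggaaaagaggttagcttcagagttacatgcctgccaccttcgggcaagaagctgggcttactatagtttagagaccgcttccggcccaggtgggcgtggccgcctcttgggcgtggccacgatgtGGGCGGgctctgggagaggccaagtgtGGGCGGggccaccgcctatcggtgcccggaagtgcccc
Pdk4, chr6:5496279-5496528, minus strand: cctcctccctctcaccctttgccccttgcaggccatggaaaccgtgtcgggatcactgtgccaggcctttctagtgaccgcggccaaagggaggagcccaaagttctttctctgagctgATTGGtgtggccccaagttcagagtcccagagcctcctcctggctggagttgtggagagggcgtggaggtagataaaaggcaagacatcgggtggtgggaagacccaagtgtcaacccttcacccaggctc
Capitals mark GGGCGG (GC box) in Cpt2, which holds it at 65 to 60 and at 38 to 33 bases before the start, and CCAAT read on the other strand in Pdk4, at 131 to 127 bases before the start. These and a pair of further motifs were searched on both strands, and no match overlapped a match of another motif. GGGCGG was in 5 of the 10 windows (Acadl, Cpt1a, Cpt2, Hadha and Hadhb), against 32.7% of 32851 promoter windows of the same length. CCAAT was in 2 (Cpt1a and Pdk4), against 33.8%. AGGTCA, a half-site that many nuclear receptors bind, was in 3 (Acadm, Acadvl and Cpt1a), against 14%. AGAACA, one arm of the site of the glucocorticoid receptor, was in 0 of the 10, against 16.1%. These are matches of letters in short windows and say nothing on what binds there or elsewhere.

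The acyl-CoA dehydrogenases carry out the first step of each round of beta-oxidation, Acadvl on very long, Acadl on long and Acadm on medium-chain fatty acids. Acadm (ENSMUSG00000062908) was at 125, 142 and 150 TPM in the Veh livers and 271, 245 and 155 TPM in the CORT-treated livers. No CORT value reached down into the Veh range, but CORT3 lay close to Veh3, and the difference did not pass (log2 fold change 0.64, standard error 0.22, 95% interval 0.12 to 1.17, limma adjusted p = 0.127). Acadl (ENSMUSG00000026003) was at 75.6, 96.6 and 83.3 TPM in the Veh livers and 148, 149 and 92.6 TPM in the CORT-treated livers. CORT1 and CORT2 lay above all Veh values and CORT3 within them, and Acadl did not pass (log2 fold change 0.58, standard error 0.21, 95% interval 0.073 to 1.09, limma adjusted p = 0.148). Acadvl (ENSMUSG00000018574) was at 169, 183 and 179 TPM in the Veh livers and 242, 255 and 163 TPM in the CORT-treated livers. Here CORT3 was the lowest of the 6 livers, and Acadvl did not pass (log2 fold change 0.28, standard error 0.19, 95% interval -0.16 to 0.73, limma adjusted p = 0.385). Without CORT3, Acadm passed (log2 fold change 0.89, limma adjusted p = 0.0278) and so did Acadl (0.81, limma adjusted p = 0.0427).

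In duodenum, Acadl was the 1 enzyme of the 3 whose groups did not overlap. It was at 117, 161 and 123.3 TPM in Veh and 194, 203 and 227 TPM in CORT. All CORT values lay above all Veh values, but the difference did not pass (log2 fold change 0.65, standard error 0.16, 95% interval 0.27 to 1.02, limma adjusted p = 0.0926). Acadm was at 100, 77.1 and 81.3 TPM in Veh and 77.4, 89.2 and 89.4 TPM in CORT, with overlapping groups (log2 fold change -0.0098, standard error 0.14, 95% interval -0.35 to 0.33, limma adjusted p = 0.978). Acadvl was at 183, 177 and 172 TPM in Veh and 229, 177 and 207 TPM in CORT, where CORT2 lay within the Veh range (log2 fold change 0.20, standard error 0.13, limma adjusted p = 0.461). The shares of the 3 enzymes within a library do not depend on the scaling of TPM. In liver, Acadm made up 33.9%, 33.8% and 36.4% of their summed TPM in Veh and 41.0%, 37.8% and 37.8% in CORT, with no overlap (exact permutation p = 0.1). The share of Acadvl in liver was 45.7%, 43.3% and 43.4% in Veh and 36.6%, 39.3% and 39.7% in CORT, also with no overlap (exact permutation p = 0.1). That is the smallest p the design allows, so neither share can pass 0.05. In duodenum the share of Acadl was 33.6% ± 4.89 in Veh and 41.8% ± 2.58 in CORT (SD, n = 3), and CORT1 lay just below Veh2 (exact permutation p = 0.2).

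Hadha and Hadhb encode the alpha and beta subunits of the mitochondrial trifunctional protein, which completes the round for long chains. In the annotation they start 273 bases apart on opposite strands of chromosome 5, and the windows before the starts overlap in the stretch shown, read in the direction of Hadhb.
Hadha and Hadhb, chr5:30155003-30155230, plus strand: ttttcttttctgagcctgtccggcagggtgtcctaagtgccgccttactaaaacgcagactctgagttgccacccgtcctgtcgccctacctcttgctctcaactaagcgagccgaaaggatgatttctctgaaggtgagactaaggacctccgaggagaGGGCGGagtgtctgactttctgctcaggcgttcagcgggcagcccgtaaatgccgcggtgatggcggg
Capitals mark GGGCGG, 1 match that lies 90 to 85 bases before Hadhb and 188 to 183 bases before Hadha. Hadha (ENSMUSG00000025745) was at 79.1, 101 and 86.3 TPM in the Veh livers and 147, 139 and 96.1 TPM in the CORT-treated livers. Hadhb (ENSMUSG00000059447) was at 94.2, 130 and 91.9 TPM in the Veh livers and 141, 150 and 101 TPM in the CORT-treated livers. For both, CORT1 and CORT2 lay above all Veh values and CORT3 lay between them, and neither passed (Hadha: log2 fold change 0.50, standard error 0.19, 95% interval 0.042 to 0.96, limma adjusted p = 0.163). The estimate for Hadhb was lower (log2 fold change 0.30, standard error 0.21, 95% interval -0.19 to 0.79, limma adjusted p = 0.411).

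Both subunits were at higher TPM in duodenum than in liver in every Veh library, although the tissues were quantified in separate tables and this was not tested. Hadha was at 203, 188 and 190 TPM in the Veh duodenum and 226, 179 and 228 TPM in the CORT-treated duodenum (log2 fold change 0.11, standard error 0.14, limma adjusted p = 0.683). Hadhb was at 179, 157 and 165 TPM in the Veh duodenum and 188, 177 and 231 TPM in the CORT-treated duodenum (log2 fold change 0.25, standard error 0.14, limma adjusted p = 0.398). The groups overlapped for both subunits. The ratio of Hadha to Hadhb was 0.840, 0.773 and 0.940 in the Veh livers and 1.04, 0.932 and 0.955 in the CORT-treated livers (exact permutation p = 0.2). It was 1.13, 1.20 and 1.15 in the Veh duodenum and 1.20, 1.01 and 0.985 in the CORT-treated duodenum (exact permutation p = 0.3). Over all 12 libraries the ratio stayed between 0.773 and 1.20.

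Bdh1 encodes the mitochondrial dehydrogenase that interconverts acetoacetate and beta-hydroxybutyrate, the last step of ketogenesis. Bdh1 (ENSMUSG00000046598) was the 1 member with a lower mean in CORT-treated liver, at 109, 147 and 110 TPM in Veh and 133, 123.2 and 50.01 TPM in CORT. The low mean came from CORT3, while CORT1 and CORT2 lay within the Veh range, and the difference did not pass (log2 fold change -0.36, standard error 0.37, 95% interval -1.23 to 0.51, limma adjusted p = 0.571). Without CORT3 the estimate turned to 0.082 on the log2 scale (limma adjusted p = 0.824). In duodenum, Bdh1 was at 98.6, 78.0 and 77.7 TPM in Veh and 112, 69.3 and 92.9 TPM in CORT, with overlapping groups (log2 fold change 0.089, standard error 0.20, 95% interval -0.39 to 0.56, limma adjusted p = 0.840). That estimate turned to -0.070 without CORT1.

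Pdk4 encodes a kinase that phosphorylates and switches off pyruvate dehydrogenase, so that acetyl-CoA comes from fatty acids rather than from glucose. In duodenum, Pdk4 (ENSMUSG00000019577) was at 12, 8.80 and 18.4 TPM in Veh and 135, 124 and 77.4 TPM in CORT. The lowest CORT value, 77.4 TPM, lay far above the highest Veh value, 18.4 TPM, and Pdk4 rose from 13.1 ± 4.86 TPM (SD, n = 3) to 112 ± 30.7 TPM (SD, n = 3) (log2 fold change 3.03, standard error 0.30, 95% interval 2.31 to 3.74, limma adjusted p = 0.00809). All 6 leave-one-out fits, each without 1 library, called it, with adjusted p between 0.0148 and 0.0396. With the replicate number as a block Pdk4 did not pass (limma adjusted p = 0.0560). Veh1, the Veh library with few acinar transcripts, had a Pdk4 level between those of Veh2 and Veh3. Without both Veh2 and Veh3, a choice made after seeing the data that leaves 1 Veh library, the log2 fold change was 3.08 (limma adjusted p = 0.132). In liver, Pdk4 was at 0.530, 1.93 and 0.590 TPM in Veh and 2.98, 3.97 and 2.28 TPM in CORT. The groups did not overlap, with CORT3 at 2.28 TPM above Veh2 at 1.93 TPM, and the ratio of the means was 3.03, but Pdk4 did not pass (log2 fold change 1.06, standard error 0.30, 95% interval 0.35 to 1.78, limma adjusted p = 0.0833). Without Veh2 it passed (log2 fold change 1.37, limma adjusted p = 0.0315).

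No other kinase of this family rose by the test, and the plot of Pdk shares shows the make-up of the family by library. In duodenum, Pdk2 was at 101, 75.7 and 92.2 TPM in Veh and 97.6, 62.7 and 94.5 TPM in CORT (log2 fold change -0.092, standard error 0.21, limma adjusted p = 0.838). Pdk3 was at 18.3, 10.8 and 11.3 TPM in Veh and 9.07, 10.96 and 10.7 TPM in CORT (log2 fold change -0.33, standard error 0.21, limma adjusted p = 0.436). Pdk1 fell, from 9.13, 8.96 and 8.76 TPM in Veh to 5.23, 4.76 and 5.70 TPM in CORT (log2 fold change -0.68, standard error 0.12, limma adjusted p = 0.0436), and no leave-one-out fit called it, with adjusted p between 0.0865 and 0.159. Pdk4 made up 8.57%, 8.44% and 14.1% of the summed TPM of Pdk1 to Pdk4 in the Veh duodenum and 54.7%, 61.4% and 41.1% in the CORT-treated duodenum. In liver the kinase pool was mostly Pdk2, at 48.5, 59.3 and 63.3 TPM in Veh and 77.1, 69.2 and 59.4 TPM in CORT (log2 fold change 0.26, standard error 0.16, limma adjusted p = 0.342). Pdk1 in liver was at 8.60, 10.1 and 23.1 TPM in Veh and 13.2, 19.0 and 6.79 TPM in CORT (log2 fold change -0.071, standard error 0.45, limma adjusted p = 0.937), and Pdk3 was too low to be tested. The share of Pdk4 in liver was 0.919%, 2.69% and 0.677% in Veh and 3.19%, 4.29% and 3.31% in CORT. On the log2 scale the ratio of Pdk4 to the sum of the other kinases was higher in CORT by 3.29 in duodenum and by 1.62 in liver, without overlap in either tissue (exact permutation p = 0.1 in each).

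**Figure D2:**
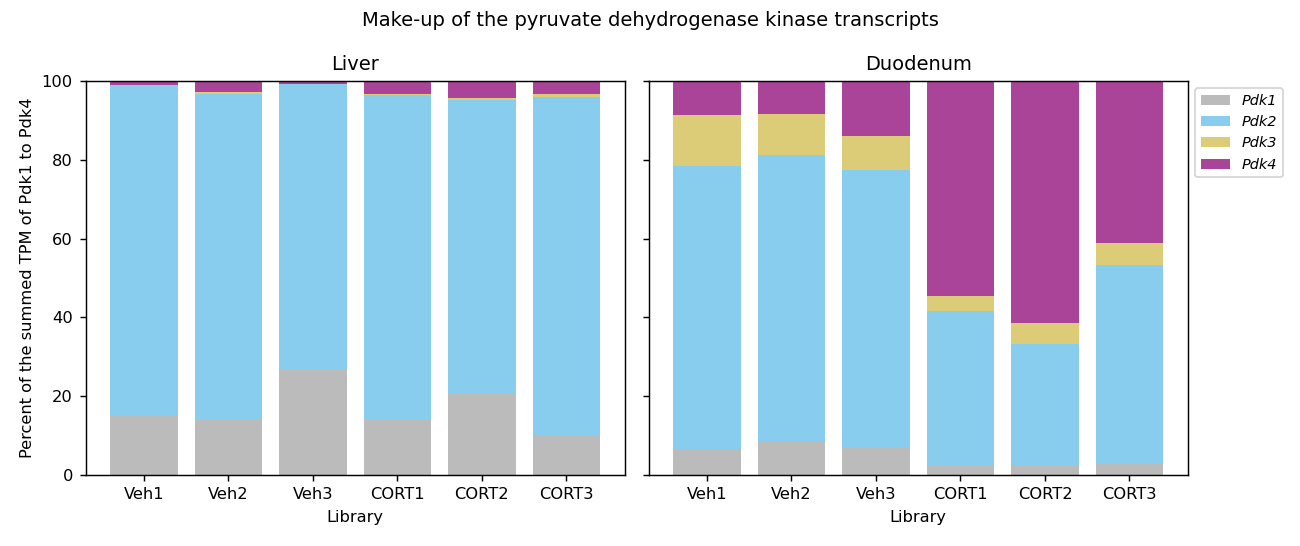
Percent of the summed TPM of Pdk1, Pdk2, Pdk3 and Pdk4 in each library of liver (left) and duodenum (right), as stacked bars that reach 100%. Pdk2 is the largest part of every liver bar, and Pdk4 grows from at most 14.1% in Veh to at least 41.1% in CORT-treated duodenum.

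The response of each member was then compared between the tissues by the treatment by tissue term of a fit of all 12 libraries, in which 3.61% of 14806 genes passed at an adjusted p of 0.05. Of the 9 genes, Pdk4 passed, with a liver response minus duodenum response of -1.97 (standard error 0.46, 95% interval -2.97 to -0.96, limma adjusted p = 0.0416). Of the 12 leave-one-out fits, 2 called it (without Veh3 or CORT3 of duodenum), and the other 10 gave adjusted p between 0.0515 and 0.0890. Since Pdk4 was near 1 TPM in the Veh livers, the scale mattered too, and with 0.1 TPM added in place of 1 TPM the difference was -1.43 (limma adjusted p = 0.269). For Cpt2, the difference was 0.85 (standard error 0.22, 95% interval 0.37 to 1.34, limma adjusted p = 0.0618), and it passed without CORT3 of liver (1.01, limma adjusted p = 0.0245). Acadm also passed without that library (0.90, limma adjusted p = 0.0385), beside 0.65 (standard error 0.27, 95% interval 0.053 to 1.25, limma adjusted p = 0.234) with all libraries. The estimates were 0.63 for Cpt1a, 0.39 for Hadha and -0.45 for Bdh1, with limma adjusted p of 0.428, 0.430 and 0.648. Acadl, Acadvl and Hadhb had estimates between -0.066 and 0.087 that took both signs when single libraries were left out. The 95% interval for Acadl was -0.67 to 0.54, which bounds the difference these libraries can show.

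**Figure D3:**
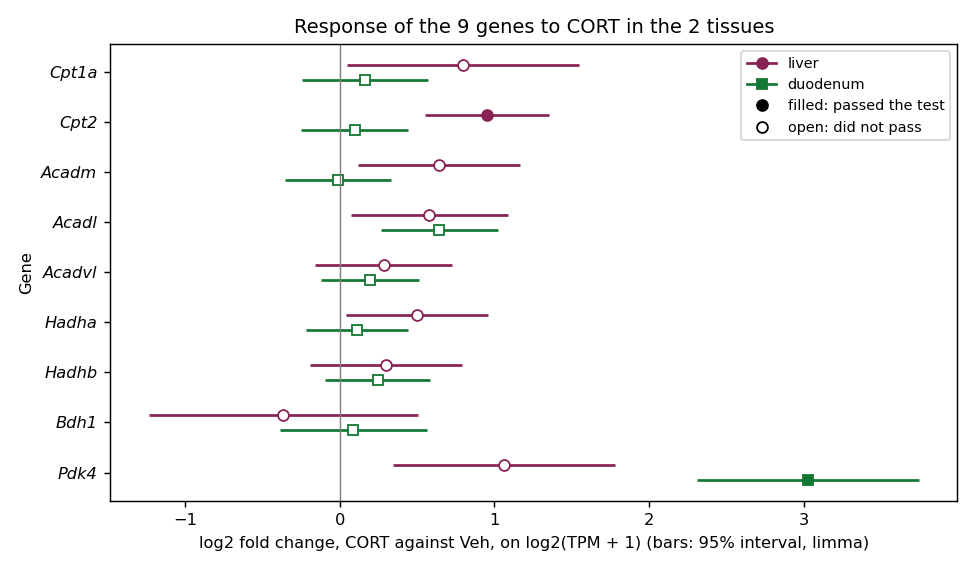
Log2 fold change on log2(TPM + 1), CORT against Veh, of each gene in liver (circles) and duodenum (squares), with 95% intervals from limma and filled symbols for genes that passed. The liver interval of Cpt2 and the duodenum interval of Pdk4 are the filled ones, and those of Acadl, Acadvl and Hadhb nearly coincide between the tissues.

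The livers differed among themselves in a way that ran through the whole set. CORT3 had the lowest CORT value for 9 of 9 members, and Veh1 had the lowest Veh value for 7 of 9. How often each library was the lowest over all genes was not computed, so these counts may not be particular to the members. Summed over the 9 genes, the livers held 773, 989 and 841 TPM in Veh and 1385, 1388 and 854 TPM in CORT, so CORT3 lay within the Veh range and the other CORT-treated livers above it. In the heat map of deviations, CORT1 and CORT2 lay between 0.03 and 1.37 above the Veh mean on the log2 scale for every member, and CORT3 between -1.26 and 0.77. CORT3 also held the most RNA of Kupffer cell and macrophage markers, 237 TPM over 8 genes against 78.7 to 131 TPM in the other livers, with no marker of that list called. Its part in the result was not tested. In duodenum the members summed to 1062, 1021 and 1000 TPM in Veh and 1374, 1177 and 1349 TPM in CORT. Pdk4 accounts for part of that, and without it the sums were 1050, 1012 and 982 TPM in Veh and 1238, 1053 and 1271 TPM in CORT. These groups barely separated, since CORT2 at 1053 TPM lay just above Veh1 at 1050 TPM, and the difference was not tested. CORT2 was the lowest CORT-treated duodenum for 6 of 9 members. The 10 enterocyte markers summed to 28860, 19604 and 20213 TPM in Veh and 36202, 31646 and 35365 TPM in CORT, with none of them called (limma), and their part in the member levels was not tested.

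**Figure D4:**
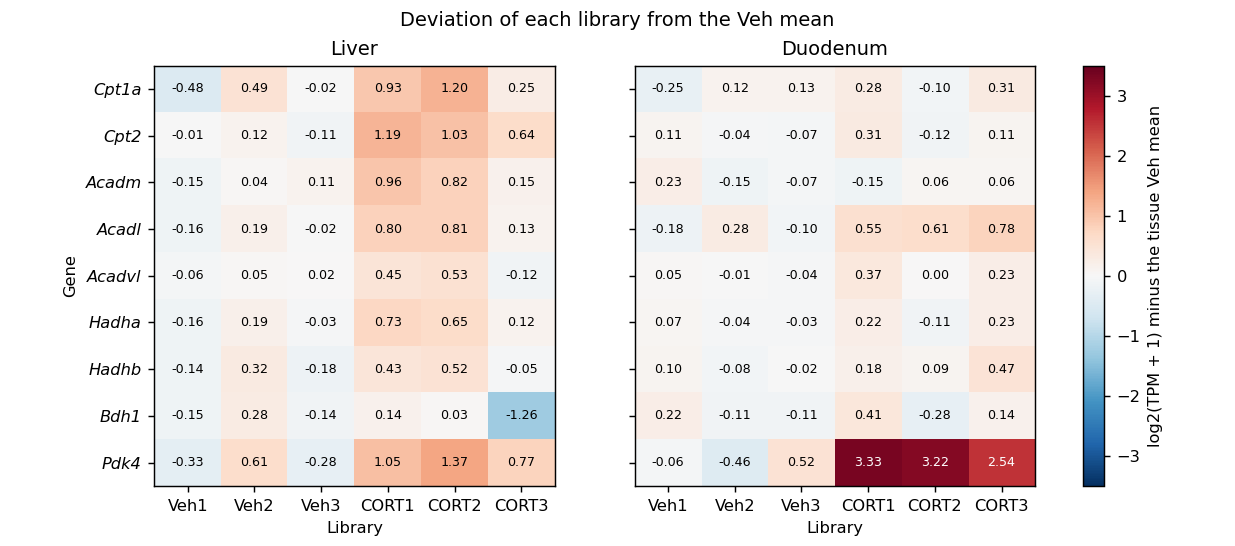
Difference of log2(TPM + 1) of each library from the Veh mean of its tissue, for the 9 genes in rows and the 6 libraries of liver (left) and duodenum (right) in columns, with red above and blue below the Veh mean. In liver the CORT1 and CORT2 columns are at or above the Veh mean for all genes and CORT3 is paler, with Bdh1 at -1.26, and in duodenum the deep red lies in the Pdk4 row, between 2.54 and 3.33.

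Within a library the order of the levels also differed between the tissues. In the Veh livers, Acadvl was the highest at 177 ± 7.02 TPM, and its 3 values lay above all values of the next gene, Acadm, at 139 ± 12.6 TPM (SD, n = 3). Then came Bdh1 at 122 ± 21.7 TPM, Hadhb at 105 ± 21.6 TPM, Cpt1a at 91.4 ± 30.9 TPM, Hadha at 88.8 ± 11.1 TPM and Acadl at 85.2 ± 10.6 TPM, and no neighbours among these differed beyond their spread. Cpt2 followed at 57.5 ± 4.80 TPM and Pdk4 at 1.02 ± 0.792 TPM, each clear of the gene above it. In the Veh duodenum, Hadha led at 194 ± 8.05 TPM, clear of Acadvl at 177 ± 5.46 TPM, which overlapped Hadhb at 167 ± 11.1 TPM, and Hadhb overlapped Acadl at 134 ± 23.9 TPM. Cpt2 at 108 ± 7.10 TPM lay clear of Acadl above it and of Acadm below, and Acadm at 86.3 ± 12.4 TPM overlapped Bdh1 at 84.8 ± 11.97 TPM. Cpt1a at 64.7 ± 9.42 TPM and Pdk4 at 13.1 ± 4.86 TPM closed the list, each clear of its neighbour. Under CORT, Cpt1a stood at rank 3 of the livers with 159 ± 50.2 TPM, though all neighbours from Acadm at the top to Bdh1 overlapped, and Pdk4 stood at rank 6 of the duodenum with 112 ± 30.7 TPM, overlapping Cpt2 and Bdh1.

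Around the 9 genes, 58 further genes in 7 lists covered the pathway, of which 53 were tested in liver and 56 in duodenum. In liver 6 of the 53 rose and 3 fell, against 4.91% and 2.01% of all genes tested, and their median log2 fold change was 0.27 beside 0.078 over all genes. In duodenum 5 of the 56 rose and 1 fell, against 1.23% and 0.919%, and the median was 0.00089 beside -0.012. Without Veh2 and Veh3, the libraries with acinar transcripts, which leaves 1 Veh library assumed to vary like the others, 0 of the duodenum list genes passed by limma, and 10 of all genes tested did. The plot of pathway lists shows the called genes by role. The lists were chosen with earlier results of these samples known, so their counts are descriptions.

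The carnitine shuttle was the list whose tested members passed together in liver, 3 of 3, against 4.91% of all genes tested that passed as higher. The median log2 fold change was 2.13. The list held 5 genes, and those not tested were too low in liver. Cpt1a and Cpt2 of the same shuttle were counted with the members, and Cpt1a did not pass in liver (limma adjusted p = 0.172). Slc22a5, the carnitine transporter of the cell membrane, rose in liver from 4.56, 6.76 and 5.56 TPM in Veh to 36.1, 32.1 and 18.4 TPM in CORT (log2 fold change 2.13, standard error 0.26, limma adjusted p = 0.00723), and all 6 leave-one-out fits called it. Crat, carnitine acetyltransferase, rose from 3.58, 7.06 and 3.66 TPM in Veh to 44.6, 50.5 and 16.3 TPM in CORT (log2 fold change 2.63, standard error 0.44, limma adjusted p = 0.0196). Slc25a20, the carrier that swaps acylcarnitine for carnitine across the inner membrane between Cpt1a and Cpt2, rose from 45.1, 48.4 and 51.0 TPM in Veh to 133, 132 and 70.6 TPM in CORT (log2 fold change 1.14, standard error 0.25, limma adjusted p = 0.0428). Crat passed without Veh2 and without CORT3 but not without Veh1, Veh3, CORT1 or CORT2 (limma adjusted p between 0.0533 and 0.0764), and Slc25a20 passed without CORT3 but not without any other library (0.0827 to 0.132). With no filter on low values Crat (0.0680) and Slc25a20 (0.106) did not pass, nor did Slc25a20 with median-ratio scaling (0.0559), which left 1 and 2 of the 3. In duodenum 2 of the 4 tested rose, against 1.23% of all genes tested. Slc22a5 was at 31.7, 42.2 and 43.2 TPM in Veh and 126, 108 and 77.9 TPM in CORT (log2 fold change 1.37, standard error 0.21, limma adjusted p = 0.0310). Slc25a20 was at 63.1, 62.3 and 60.7 TPM in Veh and 124, 93.6 and 127 TPM in CORT (log2 fold change 0.87, standard error 0.15, limma adjusted p = 0.0392). The groups did not overlap for Slc22a5 and Slc25a20 in either tissue and for Crat in liver, while Crat overlapped in duodenum. Of all genes, 20.6% in liver and 12.2% in duodenum were higher in CORT without overlap. Yet in duodenum Slc22a5 passed only without CORT3 and Slc25a20 only without CORT2 among the leave-one-out fits. The rest gave limma adjusted p of 0.0582 to 0.1004 and 0.0797 to 0.148.

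**Figure D5:**
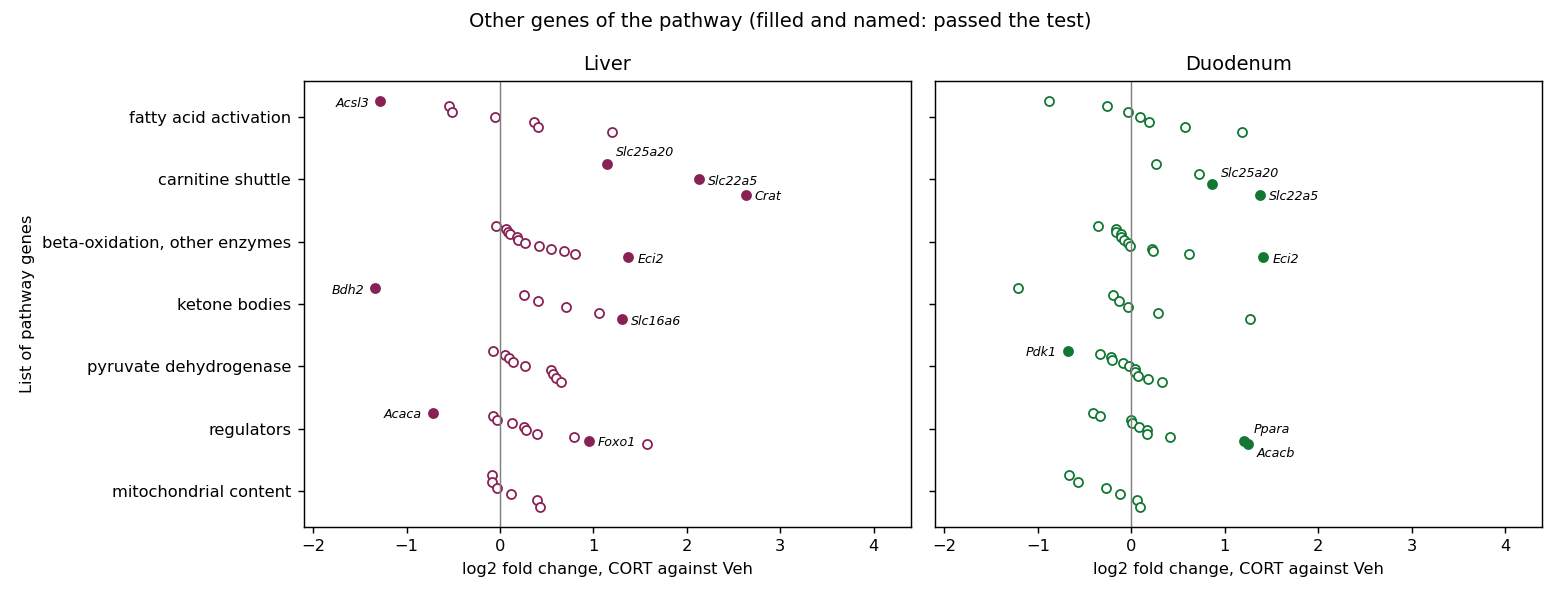
Log2 fold change, CORT against Veh, of the tested genes of the 7 pathway lists (rows) in liver and duodenum, with each point a gene and filled, named points for genes that passed. The filled points sit to the right for the carnitine shuttle in both tissues, and Crat in liver, at 2.63, is the farthest point.

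Among 12 further enzymes of beta-oxidation, 1 passed in each tissue and it was the same gene, Eci2, an enoyl-CoA isomerase for unsaturated fatty acids. Eci2 rose in liver from 106, 115 and 125 TPM in Veh to 371, 330 and 221 TPM in CORT (log2 fold change 1.37, standard error 0.21, limma adjusted p = 0.0141). In duodenum it rose from 58.1, 54.2 and 53.4 TPM in Veh to 141, 128 and 182 TPM in CORT (log2 fold change 1.41, standard error 0.16, limma adjusted p = 0.0117). The call failed without Veh1 in liver (limma adjusted p = 0.0530) and without Veh3 in duodenum (0.0590). With the replicate number as a block it failed in liver (limma adjusted p = 0.0526) and in duodenum (0.0531). The median of the list was 0.23 in liver and -0.055 in duodenum. Of the 7 tested genes for fatty acid activation, 0 passed as higher in either tissue by limma, with 3 in each tissue at an unadjusted p under 0.05 (25.9% of all genes in liver, 19.2% in duodenum), and 1 fell in liver. That gene was Acsl3, a long-chain acyl-CoA synthetase, at 6.68, 15.8 and 8.77 TPM in Veh and 2.92, 3.74 and 3.72 TPM in CORT (log2 fold change -1.28, standard error 0.28, limma adjusted p = 0.0436). It passed without Veh1 and without Veh2 but not without Veh3 or any CORT library (limma adjusted p between 0.0900 and 0.136). The largest rise of the list in liver was that of Acsl1, from 119, 164 and 146 TPM in Veh to 449, 388 and 199 TPM in CORT. It did not pass (log2 fold change 1.20, limma adjusted p = 0.0641), but did without CORT3. In duodenum its log2 fold change was 0.58 (limma adjusted p = 0.0923).

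The ketone body list gave 1 rise and 1 fall among 6 genes tested in liver. In duodenum 0 of its 6 genes passed by limma, with 2 at an unadjusted p under 0.05, beside 19.2% of all genes. Slc16a6, a transporter that exports beta-hydroxybutyrate from hepatocytes, rose in liver from 2.36, 1.13 and 1.64 TPM in Veh to 5.42, 7.28 and 4.31 TPM in CORT (log2 fold change 1.30, standard error 0.24, limma adjusted p = 0.0256), and failed without Veh3, CORT1 or CORT2 (limma adjusted p between 0.0682 and 0.0875). Bdh2 fell in liver from 14.9, 20.1 and 19.1 TPM in Veh to 7.83, 5.11 and 6.81 TPM in CORT (log2 fold change -1.33, standard error 0.18, limma adjusted p = 0.0105), and all 6 leave-one-out fits called it. With the replicate number as a block Bdh2 did not pass (limma adjusted p = 0.052).

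Of the subunits and regulators of pyruvate dehydrogenase, 0 of 9 passed in liver by limma, with 4 at an unadjusted p under 0.05 beside 25.9% of all genes (2 of the 4 also met the fold limit), and 1 of 11, Pdk1, passed in duodenum. Among 10 regulators of the pathway, Foxo1, a transcription factor that insulin holds in check, rose in liver from 3.23, 4.17 and 4.64 TPM in Veh to 10.1, 6.59 and 9.57 TPM in CORT (log2 fold change 0.95, standard error 0.20, limma adjusted p = 0.0357). Acaca, the acetyl-CoA carboxylase of fatty acid synthesis, fell in liver from 18.5, 19.3 and 25.2 TPM in Veh to 11.6, 13.8 and 11.52 TPM in CORT (log2 fold change -0.72, standard error 0.16, limma adjusted p = 0.0426). Both calls were fragile: Foxo1 passed in 1 of the 6 leave-one-out fits (without CORT2) with adjusted p of 0.0616 to 0.128 in the rest, and Acaca in none of them (0.0568 to 0.148). In duodenum, Ppara, the nuclear receptor that fatty acids activate, rose from 10.2, 9.04 and 13.6 TPM in Veh to 26.4, 21.8 and 31.4 TPM in CORT (log2 fold change 1.21, standard error 0.19, limma adjusted p = 0.0329). Acacb, the carboxylase whose product malonyl-CoA inhibits Cpt1a, rose from 1.20, 1.51 and 1.31 TPM in Veh to 5.18, 3.20 and 5.54 TPM in CORT (log2 fold change 1.24, standard error 0.21, limma adjusted p = 0.0372). Ppara passed in none of the 6 leave-one-out fits (limma adjusted p between 0.0604 and 0.102) and Acacb in 1, without CORT2 (0.0809 to 0.131 in the rest). In liver, Ppara was at 36.5, 58.2 and 34.1 TPM in Veh and 84.4, 76.9 and 60.1 TPM in CORT, with no overlap (log2 fold change 0.79, standard error 0.23, limma adjusted p = 0.0894). Ppara passed in liver without Veh2 (1.03, limma adjusted p = 0.0333). Acacb in liver was at 7.23, 6.13 and 13.3 TPM in Veh and 35.0, 35.8 and 15.7 TPM in CORT, with no overlap (log2 fold change 1.57, standard error 0.38, limma adjusted p = 0.0555). Acacb passed there without CORT3 (1.95, limma adjusted p = 0.0247). None of 6 genes that track mitochondrial content passed in either tissue by limma, with 1 in each at an unadjusted p under 0.05 (25.9% and 19.2% of all genes), and their median log2 fold change was 0.042 in liver and -0.20 in duodenum.

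Adipocyte markers were measured because these genes are also active in fat tissue. The 8 markers summed to between 11.6 and 27.9 TPM in the Veh livers and between 58.3 and 150 TPM in the CORT-treated livers, where Adipoq and Lep were at 0 in all 6 libraries and Cidec held most of the sum. In duodenum the sums were between 196 and 232 TPM in Veh and between 308 and 402 TPM in CORT, again mostly Cidec, with 1 marker called. The part of fat tissue in the responses above was not tested. Other marker lists also differed between the groups without overlap. Lymphocyte markers summed to between 832 and 1038 TPM in Veh and between 254 and 566 TPM in CORT-treated duodenum, mostly Jchain, and to between 3.01 and 8.50 TPM in Veh and between 1.48 and 2.62 TPM in CORT-treated liver, with none of them called by limma. In liver, the enterocyte list summed to between 257 and 359 TPM in Veh and between 726 and 4109 TPM in CORT, mostly Apoa4, with 1 marker called and Alpi at 0 in all 6 libraries. In duodenum, the hepatocyte list summed to between 8638 and 12760 TPM in Veh and between 16843 and 22518 TPM in CORT, mostly Apoa1, with 1 marker called and Fgb at 0 in all 6 libraries. Apoa4 held up to 93.5% of the enterocyte sum in a liver library, and Apoa1 up to 95.8% of the hepatocyte sum in a duodenum library. These 2 sums therefore follow 1 gene each and do not measure a cell type. The part of any cell type in the member values was not tested.

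Genes with the profile most like a member were sought by the root mean square difference of their deviations from the Veh mean of each tissue on the log2 scale, over the 12 libraries and among 10500 genes tested in both tissues. For Pdk4 the nearest were Sgk1 at 0.522, Cyp3a11 at 0.538 and Ces1d at 0.540, where the median over all genes was 1.65. The log2 fold changes were 1.18, 1.59 and 1.00 in liver and 2.55, 2.34 and 2.76 in duodenum, in that order of genes. The smaller values in liver, as for Pdk4, follow from choosing these genes on the same values. Sgk1 did not pass in duodenum (limma adjusted p = 0.0596), nor Ces1d in liver (0.0767), while Cyp3a11 passed in both. Cpt1a was most like Gpc1 at 0.167, Enc1 at 0.173 and Unc5b at 0.177, with a median over all genes of 0.537. None of these neighbours of Cpt1a passed in either tissue (limma adjusted p between 0.143 and 0.973).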

How the data were processed

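Liver and duodenum of CORT-treated and Veh mice were profiled by paired-end Illumina RNA-seq (TruSeq RNA kit), 12 libraries in all, and groups and replicate numbers were taken from the labels. Per the paper and the labels, the authors used SeqPrep and Sickle for trimming, HISAT2 for alignment, StringTie for assembly and RSEM for quantification (genome GRCm39 per the submitters' processing notes, versions not given in the sources used here), and they called DEGs with DESeq2. The deposited tables give TPM for every single library, which keeps no read depth. The promoter windows are RefSeq's for GRCm38.p6, another build, so no coordinates are given for the measured genes themselves.

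Genes whose CORT or Veh mean reached 1 TPM were tested on log2(TPM + 1), separately per tissue, in limma 3.58.1 under R 4.3.3 (lmFit and eBayes with trend, 1 treatment term), with Benjamini-Hochberg adjustment over all genes tested. The treatment by tissue term came from 1 fit of all libraries, taken as independent although both tissues may come from the same mice. The planned design allowed for either unit, and because the tables hold TPM no count model was run. The fits were tested on simulated data. Ratios within a library were compared by two-sided exact permutation tests. Sequences and figures were made in Python 3.11.15. The 9 members, the 7 pathway lists and the 8 marker lists were chosen with earlier results of these data known. Named beside the members were pathway genes called in a tissue (at most 12 per tissue by adjusted p), Ppara, Acacb and Pdk1 to Pdk3 whatever their test, Fkbp5, and the 3 genes most like Pdk4 and like Cpt1a. Oxct1 and Acsl1 were named after their values were seen, Oxct1 since its tissue difference passed and Acsl1 since it rose most of its list in liver. Results were recomputed with 0.1 as pseudocount, without the filter, with median-ratio scaling, with the replicate number as a block, with unadjusted p-values and without each library in turn. Removal of acinar genes in the fit of both tissues and the duodenum without Veh2 and Veh3 were added after seeing the data. Protein sequences were not used here, and 1 pathway gene is not reported here.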

Additional observations from a re-analysis of the deposited data

Results flagged for a closer look

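A test of the treatment by tissue term gave a response to CORT that differed between liver and duodenum for 1 member and 4 genes of the pathway lists, where 3.61% of 14806 genes passed. Each value is the log2 fold change in liver minus that in duodenum. For Pdk4 it was -1.97 (standard error 0.46, 95% interval -2.97 to -0.96, limma adjusted p = 0.0416), a larger response in duodenum. It passed in 2 of the 12 leave-one-out fits. With 0.1 TPM added in place of 1 TPM, with no filter or with the replicate block it did not pass. Some of the 4 list genes below also did not pass with no filter, and some did not with the block. Pdk4 averaged 1.02 TPM in the Veh livers, so the size of its liver response depends on the TPM added.

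Acsl3 had -2.47 (standard error 0.41, 95% interval -3.37 to -1.57, limma adjusted p = 0.00902), with 7.35, 7.67 and 5.98 TPM in Veh and 12.4, 25.2 and 16.0 TPM in CORT-treated duodenum (log2 fold change 1.19, standard error 0.25, limma adjusted p = 0.0667) against its fall in liver, and passed in all 12 leave-one-out fits. Bdh2 had -1.62 (standard error 0.29, 95% interval -2.26 to -0.98, limma adjusted p = 0.0127) and passed in all 12 as well, while in duodenum it was at 0.650, 1.12 and 1.73 TPM in Veh and 1.62, 1.33 and 1.84 TPM in CORT (log2 fold change 0.29, standard error 0.24, limma adjusted p = 0.538). Crat had 2.36 (standard error 0.51, 95% interval 1.25 to 3.48, limma adjusted p = 0.0297) and in duodenum was at 68.5, 60.9 and 58.1 TPM in Veh, with 76.4, 66.5 and 83.2 TPM in CORT (log2 fold change 0.26, standard error 0.14, limma adjusted p = 0.343), and passed in 2 of the 12 fits, with adjusted p between 0.0526 and 0.0734 in the others. Oxct1, the enzyme that lets tissues burn ketone bodies, had 2.27 (standard error 0.52, 95% interval 1.12 to 3.42, limma adjusted p = 0.0405). It was at 0.770, 1.76 and 0.980 TPM in Veh and 2.99, 1.86 and 6.61 TPM in CORT-treated liver (log2 fold change 1.06, standard error 0.37, limma adjusted p = 0.134). In duodenum it was at 61.5, 107 and 67.1 TPM in Veh and 38.2, 41.0 and 21.2 TPM in CORT (log2 fold change -1.21, standard error 0.30, limma adjusted p = 0.0980). Every CORT liver lay above every Veh liver and every CORT duodenum below every Veh duodenum, but neither tissue passed alone, and the difference passed in 3 of the 12 fits (adjusted p between 0.0513 and 0.0891 in the others).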

How the results depend on the processing

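The member calls rest on few libraries. In liver 1 member passed, 0 with no filter on low values and 4 by unadjusted p (15.5% of all genes), and 0 to 3 when a library was left out (3 without CORT3: Cpt2, Acadm and Acadl). Of the liver pathway lists 9 genes passed, 3 with no filter, 2 with the replicate block, 18 by unadjusted p and 3 to 12 when a library was left out, the 12 without CORT3 sharing 6 with the 9. In duodenum 1 member passed, 0 with the replicate block (Pdk4 adjusted p = 0.0560), 0 without Veh2 and Veh3, 2 by unadjusted p (10.3% of all genes) and 1 in each leave-one-out fit. Of the duodenum lists 6 genes passed, 1 with no filter, 1 with the block, 0 without Veh2 and Veh3, 12 by unadjusted p and 0 to 3 when a library was left out. The tissue difference was called for 1 member, for 0 with 0.1 TPM added, 0 with no filter, 0 with the block and 0 to 2 when a library was left out.

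With no filter the adjustment covered more genes (23316 in liver, 24876 in duodenum), and the cause of the other changes was not tested. Removing the acinar marker genes and rescaling left all 30 duodenum and tissue-difference results on their side of the threshold. That step takes out only the listed markers, so it cannot show what other pancreatic RNA adds to the remaining values. Same-numbered deviations correlated between -0.1195 and 0.0734, and different-numbered ones between -0.1399 and 0.127. With 3 libraries per group these values cannot show whether the replicate numbers pair the samples, and the labels name no pairs. Over all genes the block gave 307 calls in liver and 62 in duodenum, no filter 283 and 52, and leaving out a library 247 to 831 and 66 to 237, against 810 and 292; without Veh2 and Veh3 there were 10. Median-ratio scaling moved the median of all liver genes from 0.078 to -0.0028 and the split of calls from 575 of 810 higher to 543 of 1011 higher, with Cpt2 still called (adjusted p = 0.0294) and Slc25a20 no longer (0.0559), so that 8 of the 9 list genes in liver passed.

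No call changed its sign under these alternatives, and the signs that turned belong to differences that did not pass. Without Veh2 and Veh3 the duodenum log2 fold change was -0.0081 for Cpt2 and -0.14 for Bdh1, and with median-ratio scaling the tissue difference was -0.013 for Acadvl and -0.046 for Hadhb. Leaving out a library gave ranges across 0 in liver for Bdh1 (-0.61 to 0.082), Pdk1 (-0.38 to 0.34) and the ratio of Cpt1a to Cpt2 (-0.40 to 0.027), in duodenum for Cpt2 (-0.0089 to 0.21), Acadm (-0.085 to 0.10), Bdh1 (-0.070 to 0.27), Pdk2 (-0.21 to 0.11) and the ratio of Cpt1a to Cpt2 (-0.11 to 0.16), and between tissues for Acadl (-0.21 to 0.16), Acadvl (-0.033 to 0.29) and Hadhb (-0.055 to 0.23). TPM gives no depth, so low levels, Pdk4 in liver among them, have no counting limit.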
